A study of Danio rerio with 6 samples.

Results

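The 4 genes described here follow the bone-forming lineage of the zebrafish fin from its first transcription factors to a matrix collagen. They are runx2a (ENSDARG00000040261), runx2b (ENSDARG00000059233), sp7 (ENSDARG00000019516) and col10a1a (ENSDARG00000054753), picked by their identifiers out of the 31901 genes of the count files. A gene table pairs these identifiers with the symbols RUNX2, runx2b, SP7 and COL10A1. All 4 passed the filter on low counts that left 18455 genes to test.

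The tissue was regenerating caudal fin of zebrafish carrying the transgene shha:eGFP, a fluorescent reporter of the Hedgehog ligand gene shha, taken 96 hours after amputation of the fin. The outgrowth was cut into a tip part with the eGFP signal, called distal, and a base part, called proximal, and both groups carry the same transgene. There were 3 distal and 3 proximal RNA sequencing libraries, each made from tissue pooled from 4 fins and numbered 2, 3 and 4 in both regions. Strain, age and sex are not given in the sources used here. The libraries held between 20113859 and 23629159 reads assigned to genes.

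Runx2 is the transcription factor that commits cells to the osteoblast lineage, and zebrafish have a pair of genes for it. Sp7, also called Osterix, acts downstream of Runx2 and is needed for committed cells to become osteoblasts that make bone matrix. In mammals collagen X marks hypertrophic cartilage, whereas in zebrafish col10a1a is also made by osteoblasts, those of the fin rays included. After fin amputation osteoblasts lose mature features, enter the outgrowth and build new bone behind the advancing tip.

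The fitted log2 fold change, distal minus proximal, was negative for the collagen gene col10a1a and positive for the transcription factor genes runx2a, runx2b and sp7. The order in which the 4 genes act in the lineage was not tested with these counts. Other genes of bone matrix and mineralization, given below, were split between the pieces. The collagen gene col10a1a had 1.72-fold higher levels in proximal tissue. This was the only one of the 4 differences with an adjusted p-value under 0.05 when the numbers of the libraries were ignored. As shares of library totals, without the scaling used in the fits, the mean levels of runx2a, runx2b and sp7 were higher in distal tissue. On that scale, which leans toward distal tissue, each of these genes was higher in the distal piece of all 3 same-numbered pairs. Of these, sp7 passed the test only when the number was included as a block, by 1.43-fold. The runx2 genes did not pass in either fit, so the direction of their difference was not resolved. In whole pieces of tissue, fewer cells of a type and less RNA per cell cannot be told apart.

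These counts are read against a comparison in which many genes differ. In the edgeR quasi-likelihood test without a block, 29.7% of the tested genes had a Benjamini-Hochberg adjusted p-value under 0.05, 15.3% with higher levels in distal and 14.4% with higher levels in proximal tissue. With the number as a block the share was 48.4%, of which 23.3% had higher distal and 25.1% higher proximal levels. Among the 4 genes, 0 were called higher in distal and 1 in proximal tissue without the block, and 1 in each direction with it. Without the block, 0 of the genes with higher distal levels had even an unadjusted p-value under 0.05, and the same counts of 0 came from the DESeq2 Wald test and limma-voom. The CPM ranges of the regions did not overlap for 2 of the 4 genes, compared with 46.5% of all tested genes.

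**Figure D1:**
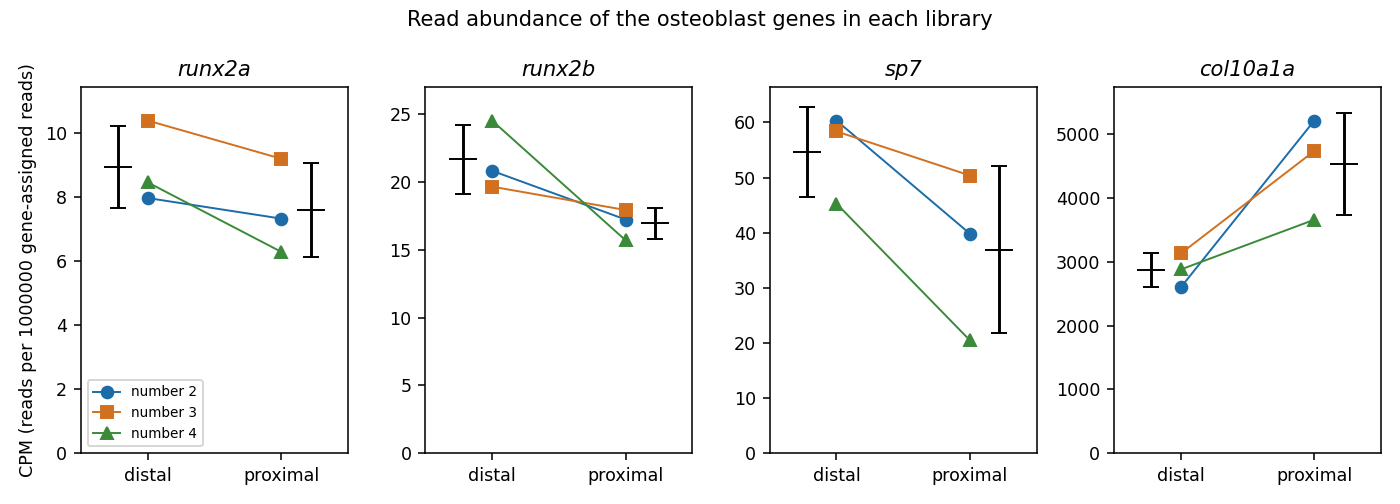
Reads per 1000000 gene-assigned reads (CPM, linear axis from 0) of each gene in every library, with lines joining same-numbered distal and proximal samples and black bars giving the mean and SD of 3 libraries. The 3 lines fall from distal to proximal for runx2a, runx2b and sp7 and rise for col10a1a, and sp7 of number 4 is the lowest value in both regions.

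The gene runx2a had 7.96, 10.4 and 8.45 CPM in distal libraries 2, 3 and 4, and 7.32, 9.19 and 6.29 CPM in proximal libraries 2, 3 and 4. CPM is the number of reads of a gene per 1000000 reads assigned to genes in that library. The ranges of the regions overlapped, and library 3 was the highest of each region. Counting error alone was wide for this gene, since the lowest library rested on 135 reads (6.29 CPM, 95% Wilson interval 5.31 to 7.44) and the highest on 232 (10.4 CPM, 9.13 to 11.8). Intervals of this kind cover counting error only.

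The means of runx2a were 8.93 ± 1.28 CPM in distal and 7.60 ± 1.47 CPM in proximal tissue (SD, n = 3 each). The log2 fold change, distal minus proximal after TMM scaling, edgeR's trimmed-mean method, was 0.12 (SE 0.17; adjusted p by edgeR = 0.648). Its 95% interval ran from -0.27 to 0.50, from 1.21-fold higher in proximal to 1.42-fold higher in distal tissue. A difference within those bounds could not be resolved with 3 libraries per region.

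Its paralog runx2b had 20.8, 19.6 and 24.5 CPM in distal libraries 2, 3 and 4, and 17.2, 17.9 and 15.7 CPM in the corresponding proximal libraries. Every distal value lay above every proximal value, and number 4 held both the highest distal and the lowest proximal level. The means were 21.7 ± 2.54 and 16.9 ± 1.14 CPM (SD, n = 3 each). The log2 fold change was 0.24 (SE 0.12; 95% interval -0.05 to 0.52; adjusted p by edgeR = 0.189). The interval reached 1.43-fold higher in distal tissue at its upper end. With the block it was 0.23 (SE 0.11; adjusted p = 0.0960), again short of the threshold.

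The ratios within same-numbered pairs give the same genes on the scale of library totals. The distal to proximal ratio of runx2a was 1.09, 1.13 and 1.35 in pairs 2, 3 and 4, and that of runx2b was 1.21, 1.096 and 1.56. Both genes thus had their largest ratio in pair 4. On this scale the median over the 18455 genes lay 0.12 log2 units further toward distal tissue than under TMM, which is as large as the whole fitted difference of runx2a. Scaling by totals also changed the split of all calls, from 2817 higher in distal and 2661 in proximal tissue under TMM to 3640 and 1924.

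For sp7 the libraries of a region differed most. It had 60.4, 58.4 and 45.3 CPM in distal libraries 2, 3 and 4, and 39.8, 50.4 and 20.5 CPM in proximal libraries 2, 3 and 4. The regions overlapped, because proximal library 3 lay above distal library 4. The lowest library rested on 440 reads (20.5 CPM, 95% Wilson interval 18.7 to 22.5), so the spread was far wider than counting error. The coefficient of variation of sp7 was 41.1% in proximal tissue, compared with 19.4% for runx2a, 6.74% for runx2b and 17.5% for col10a1a.

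Within pairs the distal to proximal ratio of sp7 was 1.52, 1.16 and 2.21 for numbers 2, 3 and 4. The region means were 54.7 ± 8.19 CPM in distal and 36.9 ± 15.2 CPM in proximal tissue (SD, n = 3 each). Without a block the log2 fold change was 0.46 (SE 0.27; 95% interval -0.16 to 1.08; adjusted p by edgeR = 0.236). With the replicate block it was 0.52 (SE 0.13; 95% interval 0.23 to 0.80; adjusted p by edgeR = 0.00598), and sp7 was then higher in distal tissue.

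The size of the sp7 difference moved with the pair left out. In the fit with the block, leaving out both samples numbered 4 gave a log2 fold change of 0.31 (edgeR adjusted p = 0.0315). Leaving out both samples numbered 3 gave 0.74 (adjusted p = 0.000191). Leaving out both numbered 2 gave 0.53 with an adjusted p of 0.0548, above the threshold, so sp7 was not called there. Without the block, the value fell to 0.19 when proximal replicate 4 alone was left out (adjusted p = 0.424) and rose to 0.73 without proximal replicate 3 (adjusted p = 0.0893).

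**Figure D2:**
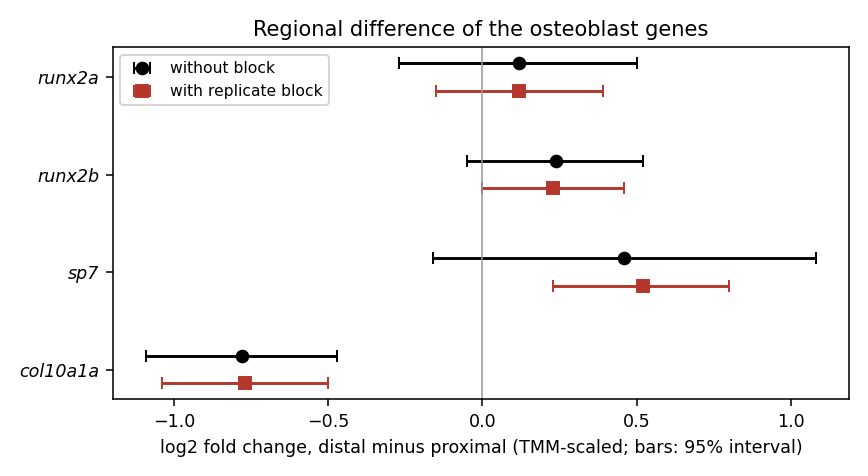
Log2 fold change of each gene, distal minus proximal, from edgeR without a block (black circles) and with the replicate block (red squares), with 95% intervals over 6 libraries. Both intervals of col10a1a lie below 0, and for sp7 the interval clears 0 only with the block, at 0.23 to 0.80.

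The collagen gene was among the genes with the most reads. In distal libraries 2, 3 and 4 col10a1a had 2597, 3127 and 2877 CPM, and in proximal libraries 2, 3 and 4 it had 5208, 4732 and 3656 CPM. No distal library reached the lowest proximal one. Ordered by reads per gene, without correction for length, it ranked 29 to 32 in distal and 20 to 23 in proximal libraries. Its share of all gene-assigned reads ran from 0.260% (2597 CPM, 95% Wilson interval 2576 to 2619) to 0.521% (5208 CPM, 5179 to 5238). Transcript lengths were not used here, so the levels of the 4 genes are not ordered against each other.

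The means of col10a1a were 2867 ± 265.0 CPM in distal and 4532 ± 795.0 CPM in proximal tissue (SD, n = 3 each). The log2 fold change was -0.78 (SE 0.13; 95% interval -1.09 to -0.47; adjusted p by edgeR = 0.00366), a 1.72-fold higher level in proximal tissue with bounds of 1.39 and 2.13. The distal to proximal ratios within pairs 2, 3 and 4 were 0.499, 0.661 and 0.787. Pair 4 thus had the largest ratio for col10a1a, as it had for the other 3 genes. For col10a1a, which was higher in proximal tissue, this was the smallest difference. Leaving out both samples numbered 2 moved the log2 fold change to -0.61 and the adjusted p to 0.0637, above the threshold, so col10a1a was not called there. In the fit with the block and without that number it was -0.60 with an adjusted p of 0.00295.

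The genes were taken to mark successive steps, an order that was not tested here. Their ratio in the same library gives their relation without depth, scaling or gene length entering the comparison of regions. There were 4 such ratios, each compared by an exact two-sided permutation test. It ignored the pairs and, with 3 against 3 libraries, cannot give a p below 0.1. An exact sign-flip test within the 3 pairs, which cannot give a p below 0.25, gave 0.25 for both ratios with col10a1a. The same test gave 0.25 for sp7 to both runx2 genes and 0.5 for runx2b to runx2a.

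The ratio of col10a1a to sp7 reads was 43.0, 53.5 and 63.5 in distal libraries 2, 3 and 4, and 131, 93.9 and 179 in proximal libraries 2, 3 and 4. Every proximal library was above every distal one. On the log2 scale the means were 5.72 ± 0.28 and 7.02 ± 0.46 (SD, n = 3 each), a difference of -1.30, or 2.47-fold. The exact permutation p was 0.1, the smallest that this unpaired test allows, and 0.2 after Benjamini-Hochberg adjustment over the 4 ratios. The ratio was lower in the distal piece of all 3 pairs.

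The ratio of col10a1a to the summed reads of runx2a and runx2b gave the same order with less spread. It was 90.2, 104 and 87.3 in distal and 212, 175 and 166 in proximal libraries 2, 3 and 4, so the regions did not overlap. The log2 means were 6.55 ± 0.14 and 7.52 ± 0.19 (SD, n = 3 each), a difference of -0.97 or 1.96-fold (exact permutation p = 0.1, adjusted 0.2), again with all 3 pairs in that direction. Both ratios contain col10a1a, and this one uses no sp7 reads.

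Neither ratio among the transcription factor genes separated the regions. The ratio of sp7 to both runx2 genes was 2.10, 1.95 and 1.37 in distal and 1.62, 1.86 and 0.932 in proximal libraries 2, 3 and 4. The log2 difference was 0.33 (exact permutation p = 0.5, adjusted 0.6), with the distal piece higher in 3 of 3 pairs. Number 4 was the lowest of each region, and without proximal replicate 4 the difference fell to 0.03.

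The balance of the runx2 paralogs overlapped between the pieces. There were 2.61, 1.89 and 2.90 reads of runx2b per read of runx2a in distal libraries 2, 3 and 4, and 2.35, 1.95 and 2.50 in the proximal ones. The log2 difference between the regions was 0.11, with an SD of 0.14 among the 3 pair differences of 0.15, -0.04 and 0.22 (exact permutation p = 0.6, adjusted 0.6). The ratio of library 3 was the lowest in each region. Whether any reads fit both paralogs was not examined, as no sequences were used.

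**Figure D3:**
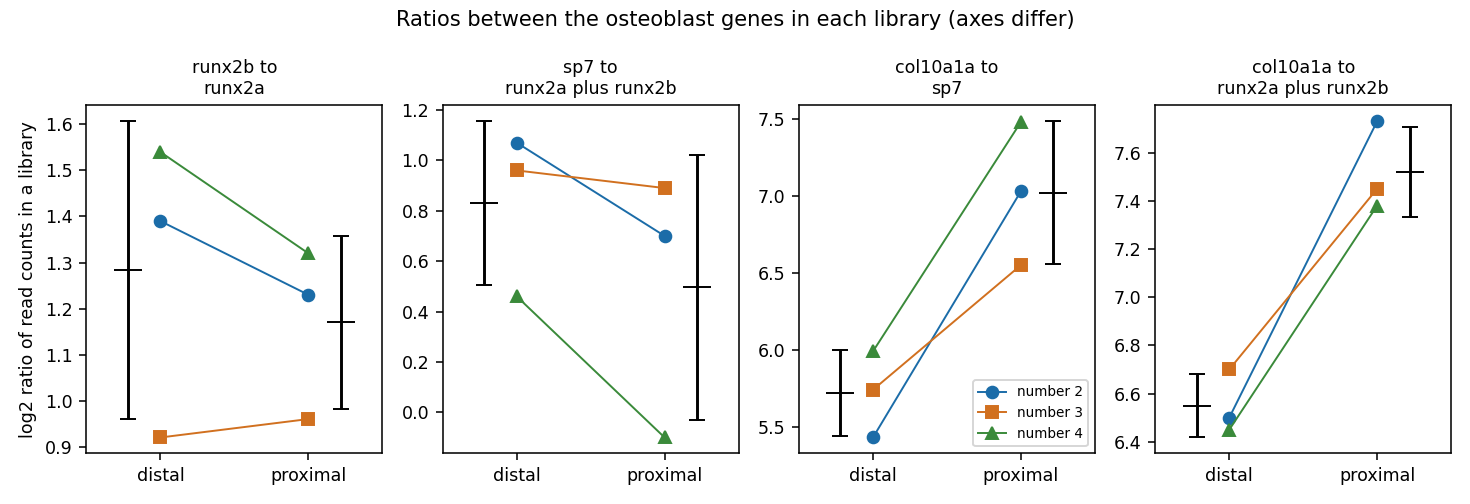
Log2 ratio of read counts between the genes within each library, with lines joining same-numbered samples and black bars giving the mean and SD of 3 libraries; the vertical axes differ and do not start at 0. Both ratios with col10a1a are higher in every proximal than in every distal library, with log2 differences, distal minus proximal, of -1.30 and -0.97, and the other ratios overlap.

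A second copy of the collagen gene had a larger fold change. The gene table lists another identifier, ENSDARG00000101535, as COL10A1, and it had 202, 364 and 276 CPM in distal libraries 2, 3 and 4, against 1746, 1629 and 1036 CPM in proximal libraries 2, 3 and 4. The fitted log2 difference was -2.51 (SE 0.25; adjusted p by edgeR = 0.000227), compared with -0.78 for col10a1a. It took 7.22, 10.4 and 8.75% of the reads of both copies in distal libraries and 25.1, 25.6 and 22.1% in proximal ones. The log2 ratio of this copy to col10a1a differed by -1.75 between the regions, without overlap (exact permutation p = 0.1, the smallest possible). This ratio was computed after the values were seen.

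Other genes of bone matrix and mineralization were split between the pieces. Of 25 matched identifiers, 23 were tested and 13 were called, 6 higher in distal and 7 in proximal tissue (edgeR without block, adjusted p under 0.05). Over all tested genes 29.7% were called in that fit. The median log2 fold change of the 23 was -0.03, compared with -0.01 over all tested genes. The other 2, bglap and kera, had too few reads to be tested.

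Higher in proximal tissue, beside the second COL10A1, were 6 genes for matrix proteins. Osteopontin, spp1, had 6.29, 11.0 and 18.3 CPM in distal and 75.7, 72.5 and 74.6 CPM in proximal libraries 2, 3 and 4 (log2 fold change -2.77, SE 0.33; adjusted p by edgeR = 0.000603). The osteocalcin-like gene bglapl had 1, 4 and 5 reads in distal and 184, 239 and 181 reads in proximal libraries. Its proximal to distal ratio was 57.7 after correction for depth, with a 95% exact interval for counting error of 31.1 to 121. The calcification inhibitor mgp had 0.956 ± 0.266 CPM in distal and 5.09 ± 1.66 CPM in proximal tissue (SD, n = 3 each; adjusted p by edgeR = 0.00111). The fibrillar collagen genes col5a1, col5a2b and COL5A2 (ENSDARG00000031678) had smaller differences in the same direction, with log2 fold changes of -0.61, -0.77 and -0.94.

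Among the 6 genes higher in distal tissue were regulators as well as matrix genes. The gene for sclerostin, sost, a secreted Wnt antagonist that mammalian osteocytes make, had 36.6, 57.9 and 34.6 CPM in distal and 5.84, 8.37 and 7.36 CPM in proximal libraries 2, 3 and 4 (log2 fold change 2.46, SE 0.22; adjusted p by edgeR = 0.000150). The pyrophosphate-producing enzyme enpp1, whose product holds back mineralization, had 294 ± 20.5 against 75.6 ± 10.75 CPM (SD, n = 3 each; adjusted p by edgeR = 1.88e-05). The proteoglycan gene omd and the membrane channel gene panx3 were higher in distal tissue by 1.65 (SE 0.20) and 1.44 (SE 0.28) on the log2 scale, with edgeR adjusted p-values of 0.000665 and 0.00618. The alkaline phosphatase gene alpl and a periostin gene (POSTN, ENSDARG00000104267) completed the 6, with log2 fold changes of 0.53 and 0.90.

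As for sp7, 5 genes of the list passed only with the block, which raised its count from 13 to 18 of 23. Over all tested genes the block raised the count from 5478 to 8939, a larger relative rise, and the share from 29.7% to 48.4%. Higher in distal tissue were ifitm5, phex, phospho1 and an ANKH gene (ENSDARG00000071724), and higher in proximal tissue was a COL12A1 gene (ENSDARG00000078322). The phosphatase phospho1, which releases phosphate for mineral inside matrix vesicles, had 40.2, 38.9 and 26.8 CPM in distal and 24.5, 31.4 and 11.3 CPM in proximal libraries 2, 3 and 4. Its log2 fold change was 0.55 (SE 0.31; adjusted p by edgeR = 0.225) without and 0.61 (SE 0.13; adjusted p = 0.00235) with the block. The bone-specific membrane protein gene ifitm5 had a log2 fold change of 0.89 (SE 0.29; adjusted p by edgeR = 0.0503) without and 0.93 (SE 0.19; adjusted p = 0.00162) with the block.

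Among 12 other transcription factor genes listed for osteoblasts, all tested, 7 were called, 5 higher in distal and 2 in proximal tissue (edgeR without block, adjusted p under 0.05). Which cells of the pieces expressed these 12 genes was not tested. Their median log2 fold change was 0.10, compared with -0.01 over all tested genes, of which 29.7% were called. The Runx partner gene cbfb had 142, 159 and 145 CPM in distal and 86.8, 106 and 66.5 CPM in proximal libraries 2, 3 and 4, a log2 fold change of 0.67 (SE 0.14; adjusted p by edgeR = 0.00863). Of the related Runx genes, runx1 was higher in distal tissue by 2.00 (SE 0.25; adjusted p by edgeR = 0.000755), while runx3 had a log2 fold change of -0.12 (SE 0.13; adjusted p = 0.554).

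The Twist genes, whose mouse counterpart Twist1 restrains Runx2 activity, did not all pass. Higher in distal tissue were twist1a, twist1b and twist3, with log2 fold changes of 1.47 (SE 0.36), 1.18 (SE 0.13) and 0.98 (SE 0.14), and twist2 had 0.00 (SE 0.15; adjusted p by edgeR = 0.996). Higher in proximal tissue were both MEF2C identifiers, ENSDARG00000009418 and ENSDARG00000029764, at -0.67 (SE 0.15) and -0.65 (SE 0.16). Leaving out both samples numbered 2, or both numbered 3, lowered the count of called factors from 7 to 4.

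**Figure D4:**
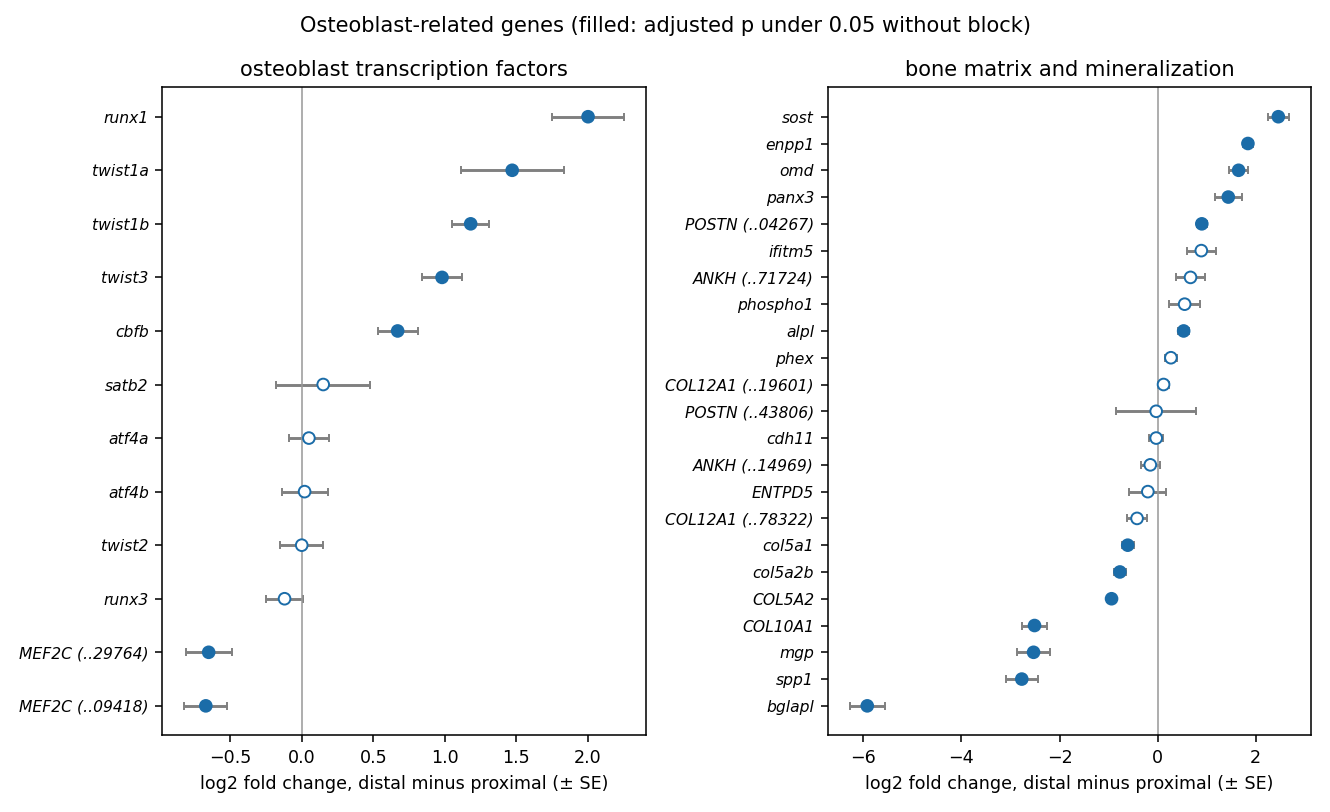
Log2 fold change, distal minus proximal, with its SE over 6 libraries, for the tested genes of both lists, with filled points for an edgeR adjusted p under 0.05 without block; digits in brackets end the identifier of genes that share a symbol. The matrix list runs from -5.92 for bglapl to 2.46 for sost, and the factor list from -0.67 for MEF2C to 2.00 for runx1. The SE of bglapl, with 10 distal reads in all, understates its uncertainty.

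The genes with the pattern most like each of the 4 were sought by Pearson correlation of log2 CPM over the 6 libraries among 9838 tested genes with a mean of at least 10 CPM. The points share library, region and depth, and the values are given as a description. For sp7 the highest values were 0.999 for lurap1, 0.998 for PHOSPHO1 (ENSDARG00000008403, the phospho1 gene above) and 0.993 for SLC7A8 (ENSDARG00000075831). For col10a1a they were 0.998 for PEF1 (ENSDARG00000023989), 0.996 for RNASEH2A (ENSDARG00000018891) and 0.993 for col5a2b. For runx2b they were 0.993 for tmbim1b, 0.985 for AUP1 (ENSDARG00000092609) and 0.978 for ELOVL1 (ENSDARG00000103735), and for runx2a 0.975 for the unnamed ENSDARG00000115161, 0.974 for TTC22 (ENSDARG00000077836) and 0.972 for OSBP2 (ENSDARG00000022772). Correlations above 0.9 were reached by 35 genes for runx2a, 65 for runx2b, 206 for sp7 and 546 for col10a1a.

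Among themselves the 4 genes were less alike. Over the 6 libraries the correlation of sp7 was 0.718 with runx2a, 0.378 with runx2b and -0.368 with col10a1a, and that of the runx2 paralogs was 0.112. After the mean of each region was subtracted, the correlation of sp7 and col10a1a was 0.599. On the log2 scale sp7 lay 0.17, 0.07 and -0.24 from its distal mean and 0.20, 0.49 and -0.69 from its proximal mean in libraries 2, 3 and 4. The deviations of col10a1a were -0.12, 0.10 and 0.03 in distal and 0.21, 0.02 and -0.23 in proximal libraries. Both genes were lowest in proximal library 4, whereas in distal libraries 2 and 4 their deviations had opposite signs.

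The pieces also differed in genes of other cell types, whose part in the results above was not tested. The counts of called genes in these lists stand beside the 29.7% called over all tested genes without the block. Beside the proximal excess of col10a1a, the summed CPM of 10 epidermal genes was 26350 to 27450 in distal and 50770 to 57280 in proximal libraries, and that of 10 endothelial genes was 131 to 154 against 226 to 290. Most of the epidermal sum came from krt5, with means of 14910 CPM in distal and 37050 CPM in proximal tissue. Beside sp7, called higher in distal tissue only with the block, stand the 9 fibroblast and actinotrichia genes of the fin ray. They summed to 8536 to 9674 CPM in distal and 1913 to 2503 in proximal libraries. Most of that sum came from and1 and and2, with means of 5364 and 2136 CPM in distal and 1229 and 182.5 CPM in proximal tissue. Of these 9 genes 8 were called, 6 higher in distal and 2 in proximal tissue. Cartilage genes, to which col10a1a is related in mammals, summed to 868 to 897 CPM in distal and 514 to 846 CPM in proximal libraries. Most of this sum came from COL2A1 (ENSDARG00000011407), hapln1a and col11a2. Their means were 420, 205 and 199 CPM in distal and 277, 192 and 166 CPM in proximal tissue. Between proximal libraries hapln1a ranged from 57.8 to 331 CPM. Of 18 identifiers, 11 were tested and 5 called, 3 higher in distal and 2 in proximal tissue (edgeR without block).

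The osteoclast genes, which mark bone-resorbing cells, summed to 525 to 602 CPM in distal and 483 to 595 CPM in proximal libraries, with 4 of 11 called, 1 higher in distal and 3 in proximal tissue. Of the epidermal genes 7 of 10 were called, 1 higher in distal and 6 in proximal tissue, and of the endothelial genes 6 of 9, all 6 higher in proximal tissue. Leukocyte genes summed to 1111 to 1324 against 1310 to 1378 CPM, with 4 of 7 called higher in proximal tissue. Most of the leukocyte sum came from cd74a and cd74b, neither of which was called. Pigment cell genes summed to 17.4 to 22.6 against 48.0 to 79.7 CPM, with 5 called higher in proximal and 1 in distal tissue out of 6. Schwann cell genes summed to 104.9 to 110.5 against 129 to 137 CPM, with 3 of 4 called, all 3 higher in proximal tissue. Most of the Schwann cell sum came from mbpb, which was not called. In each list 0 genes were at 0 counts in all 6 libraries, although snorc of cartilage and plp1b of Schwann cells were at 0 in all distal libraries and UCMA of cartilage in all proximal ones.

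**Figure D5:**
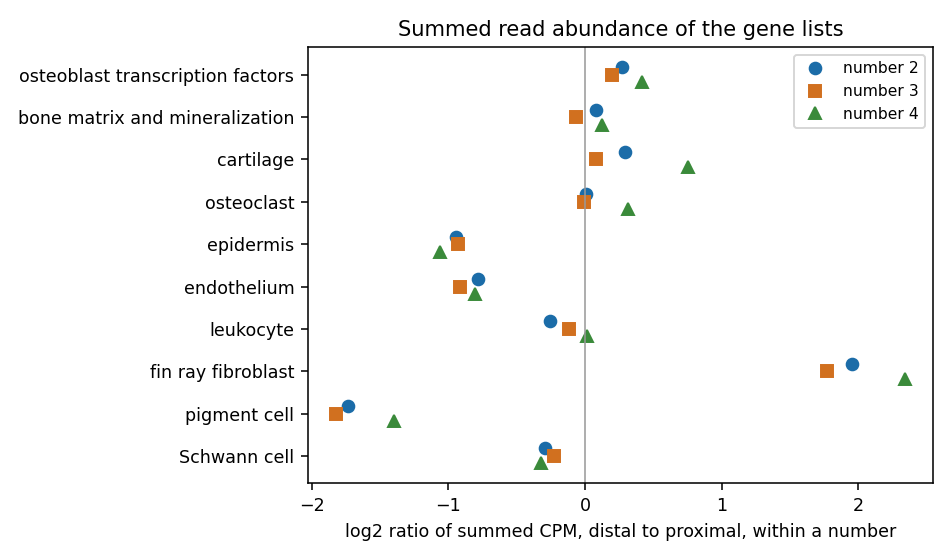
Log2 ratio of the summed CPM of each gene list, distal to proximal, within each number (1 point per number, no error bar). The points of the bone matrix list lie on both sides of 0, fin ray fibroblast sums are higher in distal tissue in all 3 pairs, and epidermis, endothelium and pigment cell sums are higher in proximal tissue in all 3 pairs.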

How the data were processed

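RNA was sequenced from 3 distal and 3 proximal samples. The authors deposited raw counts of reads per Ensembl gene for each sample. TopHat2, HTSeq and the build GRCz11 are named, without versions, per the submitters' processing notes, and the annotation release and strand setting are not given in the sources used here. The kit keeps strand, per the labels' protocols. The 5 category lines and 1 line without identifier, which equalled the sum of the gene counts, were kept out. Total counts of 20113859 to 23629159 reads put 3 counts at 0.127 to 0.149 CPM.

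Of the 31901 identifiers, 29178 were in the gene table. Listed symbols were matched without regard to case, or without their paralog letter where that was unambiguous. The reference table is of another build, so no coordinates are given, and no sequences were used.

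Counts were filtered with filterByExpr (minimum 10), scaled by TMM and tested with edgeR 4.0.16 in R 4.3.3 by the quasi-likelihood F-test without a block, with Benjamini-Hochberg adjustment over 18455 genes and a threshold of 0.05. The SE is the absolute log2 fold change divided by the square root of F. Alternatives were other scalings and filters, DESeq2 1.42.0, limma-voom 3.58.1, the replicate block and left-out samples. The fits were tested on 1 set of simulated data without a number effect and with far fewer changed genes than were called here. The changes put in that were called had the right sign. The share of false calls was above the nominal 0.05 in each fit. Deviations from the region means correlated between same-numbered samples at 0.42, 0.56 and 0.68 over the tested genes, so the titles' numbers were taken to pair the samples. The labels do not say if a shared number means shared fins, nor that samples were separate experiments. The p-values therefore set the regional difference against the spread of these samples only. Without the block that is the spread within regions, and with it the spread left after the number effects.

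The members and lists were chosen with earlier results of these data known. The named genes are the 4 members, up to 4 called genes per direction with the largest fold change in both osteoblast lists, genes named beside them after their values were seen, and the 3 genes most correlated with each member. For the markers of other cell types counts and sums are given, with some genes named after their values were seen.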

Additional observations from a re-analysis of the deposited data

How the results depend on the processing

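The directions of runx2a, runx2b, sp7 and col10a1a held under the 20 alternatives to the edgeR fit without a block. The log2 fold change ranged from 0.01 to 0.26 for runx2a, from 0.10 to 0.35 for runx2b, from 0.19 to 0.74 for sp7 and from -0.90 to -0.60 for col10a1a. No alternative called a runx2 gene (lowest adjusted p 0.325 for runx2a and 0.0510 for runx2b). For sp7 the value was 0.52 with the replicate block, 0.53 in DESeq2 with the block, and 0.74 and 0.31 with the block and without number 3 or 4, and these 4 fits called it. The call of col10a1a was lost at -0.61 without both samples numbered 2. The count of called genes, 5478, became 8939 with the replicate block, 2231 without number 2 and 2932 without number 3, and the list of bone matrix genes had 20 called with the block and without number 4, against 18 with the block and all samples and 13 without it. Of the 12 transcription factor genes 4 were called without number 2, and likewise 4 without number 3, against 7. The cause was not tested. Leaving out single libraries moved the log2 difference of the runx2b to runx2a ratio between -0.02 and 0.29, and it turned without distal replicate 4. The fits that leave out both samples of a number, and the combined fits, were chosen after seeing the data. The replicate block changed no other call among the 4 genes. Depth limits runx2a most, with 135 to 232 reads.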

Other observations

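The libraries numbered 4 had the lowest sp7 level in both regions. The TMM factors of libraries 2, 3 and 4 were 1.03, 1.07 and 1.03 in distal and 0.963, 0.996 and 0.92 in proximal tissue. In CPM, which leaves these factors out, number 4 was the lowest of both regions for 29.8% of all tested genes. For number 2 this share was 13.9% and for number 3 it was 10.1%. Of the 23 tested bone matrix and mineralization genes, 8 had this order for number 4, namely phex, phospho1, panx3, cdh11, ENTPD5 (ENSDARG00000053481), both ANKH genes and a POSTN gene, or 34.8%, which is near the share of all tested genes. ENTPD5 had 34.3, 47.0 and 21.6 CPM in distal and 39.5, 53.1 and 17.2 CPM in proximal libraries 2, 3 and 4. The zebrafish gene entpd5a is needed for bone mineralization, but the symbol of this identifier carries no paralog letter. These counts were made after the values were seen.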
